A study of Mus musculus with 577 samples.

Results

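This experiment compared single granulosa cells that were freshly dissociated with single granulosa cells cut from frozen sections by laser capture microdissection (LCM), all from the 2 ovaries of 1 mouse. The cells were chosen by their labels, as those whose cell type is granulosa cell in the table of paired fresh and LCM cells, which gave 35 dissociated and 70 laser-captured cells of the 577 samples of the series. The mouse was 8 weeks old and was taken at proestrus without superovulation. From 1 ovary, cumulus–oocyte complexes of fully grown follicles were collected in medium with dibutyryl-cAMP, an analog of cAMP, and pulled apart by pipetting, and cDNA was amplified by Smart-seq2. The other ovary was frozen, and cells were cut from alcohol-fixed sections and amplified by DRaqL-Smart-seq2, in which direct RNA recovery and quenching allows lysis of fixed cells and a second reverse transcriptase and another PCR enzyme are used. The labels call 14 of the dissociated cells neighboring, meaning attached to the oocyte, and 21 non-neighboring. For the LCM cells the same words describe the histological position, with 35 cells each. Oocytes of the same 2 ovaries, 14 dissociated and 8 laser-captured, and granulosa cells of the series' other tables of LCM cells are used below only for comparison.

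Granulosa cells are the somatic cells that surround the oocyte. As a follicle grows an antrum, they multiply, convert androgens to estrogens and secrete inhibins and activins, dimers built from the subunits encoded by Inha, Inhba and Inhbb. Cells taken out of a tissue are known to switch on immediate early genes such as Fos and Jun, whose products form the AP-1 transcription factor, within minutes and without new protein synthesis. Laser capture takes cells from tissue that was frozen beforehand. The question the design addresses is how the transcriptome of single granulosa cells in sections compares with that of cells freshly isolated from the same animal. Because each group came from 1 ovary of 1 mouse, the cells are not replicates of a condition, and no test between the groups was run. Preparation, amplification chemistry, ovary and the follicles sampled differ together between the groups and cannot be told apart.

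Reads counted on protein-coding genes ranged from 12748 to 353959 per dissociated cell, with a median of 111681, and from 21733 to 3745815 per LCM cell, with a median of 262594. In the table, 15 dissociated and 10 LCM cells held fewer than 100000 of these reads, and none held fewer than 3000 detectable genes. The number of genes with at least 1 read was 5927 ± 1753 (SD, n = 35 cells) in dissociated cells and 6563 ± 1465 (SD, n = 70 cells) in LCM cells. When every cell with at least 100000 reads was thinned to that depth, the order turned around, with 6223 ± 1749 genes in 20 dissociated cells and 5459 ± 738 in 60 LCM cells. Both differences were smaller than the spread over dissociated cells. Across the genes kept by the filter described below, the median Pearson correlation was 0.325 between dissociated cells, 0.281 between LCM cells and 0.124 between a dissociated and an LCM cell.

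Both groups carried the transcripts that mark granulosa cells. Inha was detected in every cell, at 12.76 ± 1.93 (log2(RPM+1), where RPM is reads on a gene per 1000000 reads on all protein-coding genes; mean ± SD over 35 cells) in dissociated and 10.28 ± 0.96 (n = 70) in LCM cells. Foxl2, a transcription factor that defines the granulosa lineage, was detected in 28 of 35 and 61 of 70 cells, with means of 4.90 and 5.26. Fshr, the receptor for follicle-stimulating hormone, averaged 6.00 and 7.02. Markers of theca and stroma, immune cells, endothelium and surface epithelium had low averages, and 0 of the 23 measured members of these lists passed the filter described below. Ptprc, the pan-leukocyte gene, was detected in 0 dissociated and 9 LCM cells and reached at most 3.17. Cyp17a1, the androgen-producing enzyme of theca cells, was detected in 3 and 11 cells. The summed level of the theca and stroma genes had a median of 0 in both groups and a maximum of 473 RPM in dissociated cells. In 1 non-neighboring LCM cell of library pool 7, however, it was 8268 RPM. That cell held Cyp17a1 at 12.65, Cyp11a1, the side-chain cleavage enzyme of steroid synthesis, at 12.51 and Star, which carries cholesterol into mitochondria, at 10.79, with Foxl2 and Fshr at 2.26 each, and so goes against its label. The next LCM cell was at 634 RPM. In 1 neighboring LCM cell of library pool 3, the oocyte genes summed to 28588 RPM, 106.6% of the median LCM oocyte, with Inha at 7.32, the lowest of the LCM cells, and Foxl2 at 1.17, so that it too goes against its label.

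Blood transcripts moved with the preparation. All 5 blood genes were detected in a larger share of the dissociated cells, and their summed level had a median of 36.2 RPM and a maximum of 87316 RPM there, against a median of 0 and a maximum of 615 RPM in LCM cells. Alas2, the first enzyme of heme synthesis in red cells, was the most widely detected, in 17 of 35 dissociated and 6 of 70 LCM cells. Its reads often came without globin reads. The dissociated cell highest in Alas2, at 9.42, had Hba-a1 and the β-globin gene Hbb-bs at 0. The Alas2 count is therefore not a count of cells with globin transcripts. The α-globin gene Hba-a1 stood above 12 on the log2 scale in 2 cells, both of dissociated library pool 6. One of them also had Inha at only 3.77, Foxl2 at 0 and Hsd3b1, which encodes a steroid dehydrogenase, at 12.00, so that this cell goes against its label. How far these cells bear on single results is given by the counts without them below.

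Of 22060 genes, 4944 had an average of the group means of at least 3 and were kept. Of these, 1790 (36.2%) were at least 2-fold higher in dissociated cells and 1375 (27.8%) at least 2-fold higher in LCM cells, as differences of mean log2(RPM+1). The median difference over all kept genes was -0.25, where a negative value means higher in dissociated cells. These percentages are the background for the gene lists below. The balance of these counts depended on the scaling. With TMM factors the median of all kept genes shifted by 0.52, and 1283 genes were higher in dissociated and 1763 in LCM cells. It also turned with position, at 1052 and 1675 genes with neighboring cells alone and 2495 and 1191 with non-neighboring cells alone. Without the 2 cells rich in globin and the LCM cell rich in theca transcripts, left out after the data were seen, the counts were 1897 and 1334, and the differences of Fos, Jun, Inhba and Filip1l given next were -6.64, -5.96, -7.71 and 7.87. The cell rich in oocyte transcripts stayed in these counts. Without it and the other cells at 10% of the median oocyte or more, the counts were 1883 and 1390, and these differences were -6.24, -5.94, -7.92 and 7.93.

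The 4 marker genes differed by far more than 2-fold. Inhba, Fos and Jun had the largest differences toward dissociated cells of all kept genes, and Filip1l had the largest toward LCM cells. They were chosen with earlier results of these data known, so that their rank is no independent evidence. Each passed the filter through the group where it was high alone. The means of Fos, Jun and Inhba in LCM cells were 1.39, 0.91 and 1.74, and that of Filip1l in dissociated cells was 1.28.

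**Figure D1:**
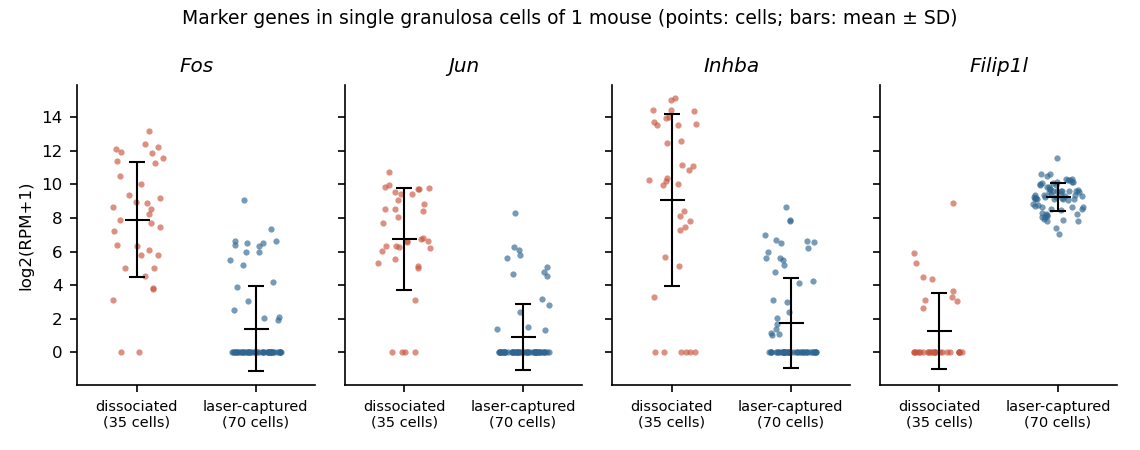
Each point is 1 granulosa cell, by gene and preparation, on an axis of log2(RPM+1), with the mean ± SD over cells as bars. Fos, Jun and Inhba are at 0 in most LCM cells, and Filip1l is above 7 in all 70 of them and at 0 in 25 of 35 dissociated cells.

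Fos, at chr12:85473890-85477273 (GRCm38), ranged from 0 to 13.18 in dissociated cells with a median of 8.25, and from 0 to 9.04 in LCM cells with a median of 0. It was detected in 33 of 35 (94.3%, Clopper–Pearson 95% interval from 80.8%) and in 19 of 70 cells (27.1%). The difference of means was -6.49. Over the summed counts of each group, Fos took 1233 RPM (exact Poisson interval 1200 to 1266) in dissociated and 10.7 RPM (9.59 to 11.9) in LCM cells; intervals cover counting error only, since reads of amplified cDNA are not independent molecules. The distributions overlapped, but an LCM cell was higher in only 6.90% of all pairs of 1 dissociated and 1 LCM cell. Jun, at chr4:95049034-95052222, was detected in 31 of 35 and 15 of 70 cells, with medians of 6.77 and 0 and a difference of -5.83. For each of the 2 genes, 1 LCM cell reached the dissociated median.

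Inhba, which encodes the βA subunit of inhibin A and activin A and lies at chr13:16011851-16031621, had the widest spread. Its dissociated values ran from 0 to 15.13 with a median of 10.24, 6 of 35 cells being at 0. Its LCM values ran from 0 to 8.66 with 44 of 70 cells at 0. No LCM cell reached the dissociated median, and 21 dissociated cells exceeded the highest LCM cell. The difference of means was -7.34, and the summed counts gave 9365 RPM (9274 to 9456) against 27.1 RPM (25.3 to 28.98).

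Filip1l, at chr16:57353093-57573126, encodes a filamin A-interacting protein and had the opposite pattern. It was detected in every LCM cell, between 7.03 and 11.56 with a median of 9.31, and in 10 of 35 dissociated cells, between 0 and 8.87 with a median of 0. The difference of means was 7.97, and an LCM cell was higher in 99.1% of pairs. Only 1 dissociated cell lay within the LCM range.

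Promoter sequence is shown for 1 gene of each direction, Fos and Filip1l. The sequences are RefSeq promoters of GRCm38.p6, on the plus strand, from 250 bases before to 50 bases after the annotated start. Motifs that respond to cAMP, to AP-1 or to serum response factor were searched on both strands in the windows of the immediate early genes, of which 32 of 40 had at least 1 promoter in the table, 38 promoters in all. The full cAMP response element TGACGTCA was in 4 of these 38 promoters and in 1.79% of all 32851. The AP-1 element TGANTCA was in 1 and in 7.81%, and the CArG box was in 6, from 3 genes, and in 1.63%. The element's core TGACG, added after the values were seen and contained in the full element, was in 20 and in 20.8%. Fos had none of the fixed motifs in this window and the core TGACG at 129 and 66 bases before the start, in capitals. The downstream of 2 Filip1l promoters, shown because it held both kinds, had a CArG box 62 bases and a TGACG core 44 bases before the start. Jun, Inhba and the upstream Filip1l promoter had no match.
Fos, chr12:85473640-85473939: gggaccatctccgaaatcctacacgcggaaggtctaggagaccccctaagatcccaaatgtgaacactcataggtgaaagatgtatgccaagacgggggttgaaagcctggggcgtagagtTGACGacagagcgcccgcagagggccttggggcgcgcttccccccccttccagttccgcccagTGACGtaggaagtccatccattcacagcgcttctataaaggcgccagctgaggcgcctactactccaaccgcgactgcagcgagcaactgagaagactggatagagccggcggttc
Filip1l, chr16:57548992-57549291: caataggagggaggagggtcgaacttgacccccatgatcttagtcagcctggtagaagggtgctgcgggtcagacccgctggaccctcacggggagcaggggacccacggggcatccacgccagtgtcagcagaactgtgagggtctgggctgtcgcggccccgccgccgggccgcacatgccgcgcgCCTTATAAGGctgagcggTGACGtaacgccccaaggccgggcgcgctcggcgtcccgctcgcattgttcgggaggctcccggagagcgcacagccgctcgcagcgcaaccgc

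Among 40 immediate early genes, 27 were detected in a larger share of the dissociated cells and 10 in a larger share of the LCM cells. Over all genes of the table the balance was the other way, with 26.5% detected in more dissociated and 54.95% in more LCM cells. The LCM libraries were also the deeper ones, and the part of depth in this balance was not tested.

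**Figure D2:**
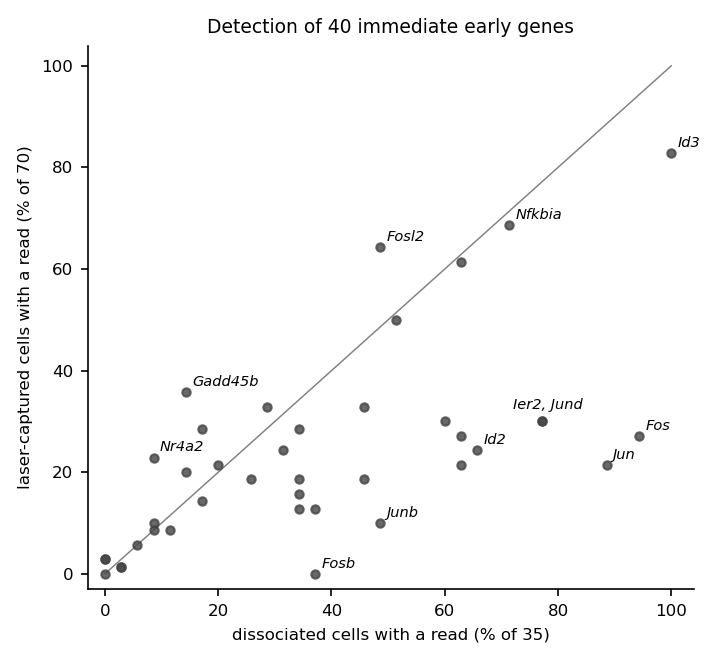
Each point is 1 of 40 immediate early genes, by the percent of dissociated cells (x axis) and of LCM cells (y axis) with at least 1 read, and the line marks equal shares. Fos, Jun, Ier2, Jund and Fosb lie far below the line, and Fosl2, Gadd45b and Nr4a2 above it.

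Only 8 of the 40 passed the filter, and several passed through the dissociated group alone, so that no weight is put on their median of -3.37. By genomic span, 7 of the 8 were among the shortest 20% of kept genes, which mostly were higher in dissociated cells, as given further below, and the part of length was not tested. Of the 8, 5 were at least 2-fold higher in dissociated cells and 0 in LCM cells. Ier2, an immediate early response gene, averaged 5.31 ± 3.74 in dissociated and 1.38 ± 2.50 in LCM cells, and Id2, an inhibitor of basic helix-loop-helix factors, averaged 5.00 ± 3.95 and 1.32 ± 2.50. Below the filter, Fosb was detected in 13 of 35 dissociated cells and in 0 of 70 LCM cells, which allows a share of cells with a read of up to 4.29% by the limit of 3 counts. That limit covers counting error only and does not bound the share of cells that express the gene. Junb was detected in 17 and 7 cells and Jund in 27 and 21. Not all members shared the pattern. Fosl2 averaged 3.07 and 3.22, Gadd45b was detected in 5 of 35 and 25 of 70 cells, Nr4a2 in 3 and 16, and Atf3 in 0 and 2.

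Of 18 genes listed for cAMP and ovulation, 7 were detected in under 10% of the cells of both groups, and the summed level of the list had a median of 1239 RPM in dissociated and 799 RPM in LCM cells. Has2, Ptgs2, Ptx3 and Ereg, which are known to be induced in cumulus cells as they expand, were detected in 0 of 35 dissociated cells each and in 1, 3, 0 and 1 of 70 LCM cells. Areg, which encodes an epidermal growth factor-like ligand, was detected in 2 dissociated and 0 LCM cells. Other members were abundant. Pde4d, a phosphodiesterase that degrades cAMP, averaged 6.90 ± 1.60 and 5.79 ± 1.61, and Rgs2, a regulator of G protein signaling, averaged 9.46 ± 1.89 and 9.23 ± 1.14 and was detected in every cell. These were the only 2 of 18 genes of that list to pass the filter.

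Other stress lists differed in degree. Over all kept genes, 36.2% were at least 2-fold higher in dissociated and 27.8% in LCM cells. Of 9 kept heat shock genes, 4 (44.4%) were at least 2-fold higher in dissociated and 0 in LCM cells, with a median of -0.55. Under TMM scaling this median became 0.08, while the median of all kept genes moved from -0.25 to 0.27. The mitochondrial chaperonin genes Hspe1 and Hspd1 had differences of -2.04 and -1.61. In the unfolded protein response 5 of 6 kept genes were higher in dissociated cells, with a median of -1.81. Over all 12 genes, 7 were detected in a larger share of the dissociated and 2 in a larger share of the LCM cells. Sdf2l1, an endoplasmic reticulum protein, averaged 5.84 ± 3.20 and 1.40 ± 2.36, so that it passed the filter through the dissociated group alone. The chaperone gene Hspa5 averaged 10.80 ± 1.87 and 9.28 ± 1.52. Only 3 of 11 hypoxia genes passed the filter. Bnip3 averaged 5.79 ± 2.97 in dissociated and 2.33 ± 2.72 in LCM cells, so that it passed through the dissociated group alone, and the differences of Higd1a and Vegfa were -2.76 and -1.47. Over all 11 genes, 6 were detected in a larger share of the dissociated and 5 in a larger share of the LCM cells. Of the 3 kept genes of oxidative stress, Gclm was higher in dissociated and Gclc in LCM cells.

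**Figure D3:**
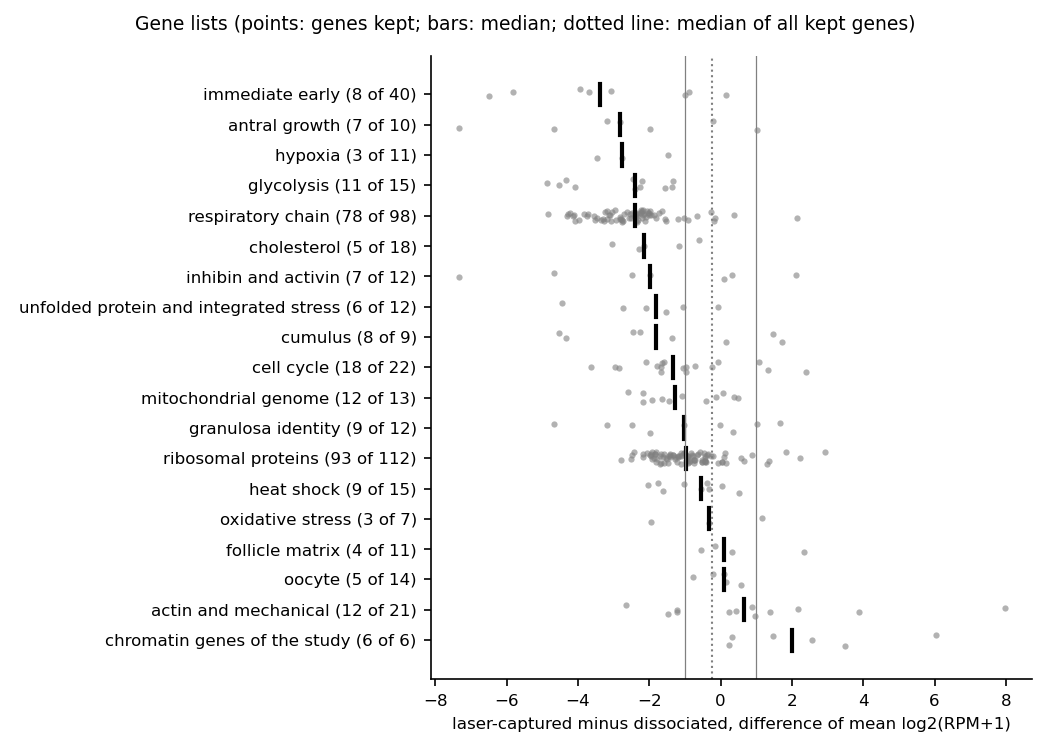
Gene lists by the difference of mean log2(RPM+1) between LCM and dissociated cells (x axis), with the number of genes kept of those in the table. Points are genes, bars are list medians, thin lines mark 2-fold and the dotted line the median of all kept genes at -0.25. The bars run from -3.37 for immediate early genes to 2.02 for the chromatin genes.

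Genes of energy metabolism were mostly higher in dissociated cells. All 11 kept glycolysis genes were at least 2-fold higher in dissociated cells, against 36.2% of all kept genes, with a median of -2.40. Among them Pgk1, at 6.69 in dissociated and 2.60 in LCM cells, passed the filter through the dissociated group alone. Of all 15 glycolysis genes, 11 were detected in a larger share of the dissociated and 2 of the LCM cells. Tpi1, which encodes triosephosphate isomerase, was detected in all 35 dissociated cells, from 7.13 to 12.11 with a median of 9.44, and in 61 of 70 LCM cells, from 0 to 14.21 with a median of 4.49. Eno1, encoding an enolase, averaged 9.80 ± 0.81 and 5.28 ± 2.83, and an LCM cell was higher in 1.55% of pairs. Ldha, encoding lactate dehydrogenase A, averaged 9.57 ± 1.63 and 5.22 ± 2.68. The mean over the 11 genes was 7.204 ± 1.20 and 4.35 ± 1.165, and 6 of 35 dissociated cells lay within the LCM range and 54 of 70 LCM cells within the dissociated range. Nuclear genes of the respiratory chain, taken by symbols that begin with Nduf, Cox, Uqcr or Atp5, behaved alike. The list therefore need not hold subunits of the chain alone. Of 78 kept genes, 71 were higher in dissociated cells and 1 in LCM cells, with a median of -2.40. Among the kept ones Cox14, with an LCM mean of 2.47, passed the filter through the dissociated group alone. Of all 98, 71 were detected in a larger share of the dissociated and 16 of the LCM cells. Uqcrfs1, the Rieske protein of complex III, averaged 7.90 ± 2.53 and 3.06 ± 3.13. Of 12 kept genes of the mitochondrial genome, 7 were higher in dissociated cells and 0 in LCM cells, mt-Co3 by 2.61. Of 93 kept genes whose symbols begin as those of ribosomal proteins, 46 (49.5%) were higher in dissociated and 5 in LCM cells, with 24 of all listed genes, kept or not, detected in a larger share of the dissociated and 51 in a larger share of the LCM cells. The member with the largest difference, Rps6ka5 at 2.94, encodes a kinase. Only 5 of 18 cholesterol genes were kept. Sqle, squalene epoxidase, averaged 4.83 ± 3.59 in dissociated and 1.78 ± 2.67 in LCM cells, and it, Fdft1 and Insig1 passed the filter through the dissociated group alone, so that no weight is put on the kept genes. Of all 18, 16 were detected in a larger share of the dissociated and 1 of the LCM cells.

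Cell cycle genes were split. Of all 22 members, 11 were detected in a larger share of the dissociated and 9 of the LCM cells. Of 18 kept members 10 were higher in dissociated cells, among them the replication genes Mcm2 (-3.63), Rrm2 (-2.97) and Tyms (-2.86). Rrm2, with an LCM mean of 2.48, passed the filter through the dissociated group alone. In the other direction Mki67, which marks proliferating cells, averaged 6.34 ± 3.34 in dissociated and 8.75 ± 2.72 in LCM cells, and Top2a and Bub1b were also at least 2-fold higher in LCM cells. Actin and mechanical genes were evenly divided, 4 of 12 (33.3%) in each direction, near the 36.2% and 27.8% of all kept genes. Filip1l is a member of this list. Actg1, γ-actin, differed by -2.64, and Tead1, a partner of the YAP coactivator, by 3.89. In the follicle matrix list, Lama1, a laminin chain of the basement membrane, was higher in LCM cells by 2.34 and the other 3 kept members were within 2-fold. Of the 6 chromatin genes that the study names, a choice made on cells of this series and so no independent evidence, 4 were higher in LCM cells and 0 in dissociated cells. Jarid2, which encodes a cofactor of the Polycomb complex PRC2, averaged 3.85 ± 2.67 and 9.90 ± 0.77.

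Follicle-stage genes varied between library pools, groups of cells tagmented together and numbered in the sample names, and varied differently in the 2 preparations.

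**Figure D4:**
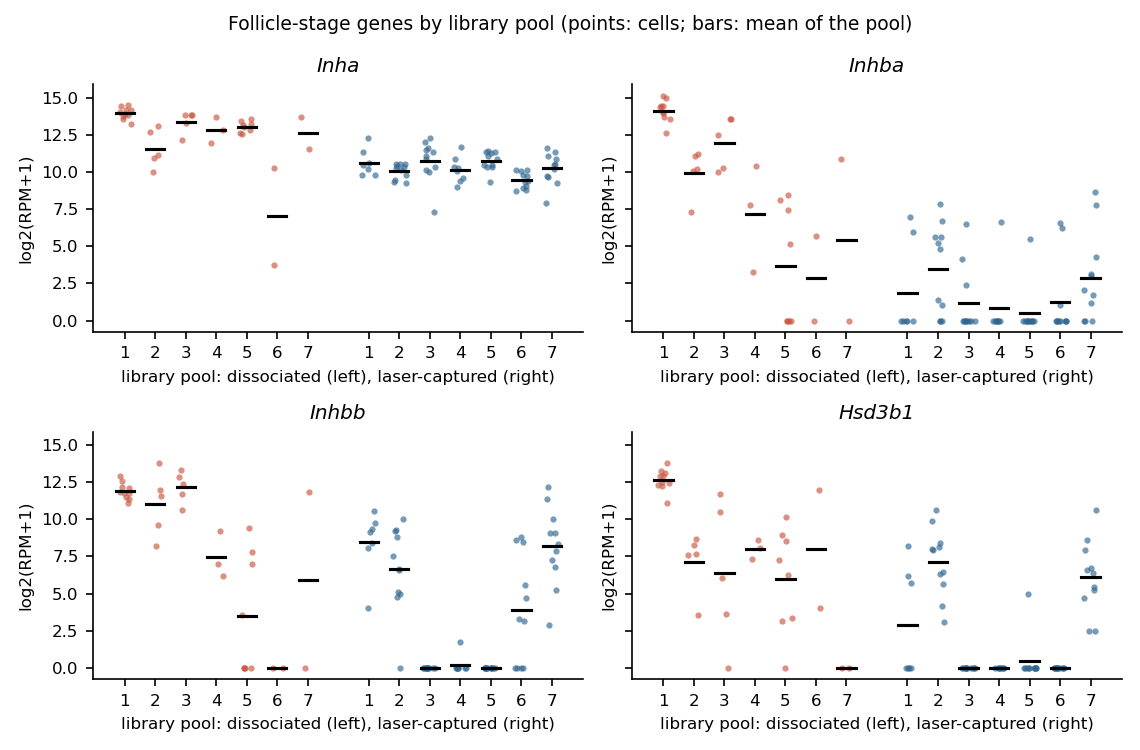
Expression (log2(RPM+1)) of 4 genes in single cells by library pool, dissociated pools on the left and LCM pools on the right of each panel, with bars at the pool mean. Inha is present in every pool, Inhbb is near 0 in LCM pools 3 to 5, and Inhba is low in all LCM pools.

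Of 7 kept genes of antral growth, 5 were higher in dissociated cells and 1, Fshr, in LCM cells. Inhba and Ihh, with LCM means of 1.74 and 2.59, passed the filter through the dissociated group alone. Of all 10 antral growth genes, 8 were detected in a larger share of the dissociated and 2 of the LCM cells. Of 9 kept granulosa identity genes 5 were higher in dissociated and 2 in LCM cells (median -1.03), of 8 cumulus genes 5 and 2 (median -1.81), and of 7 inhibin and activin genes 4 and 1 (median -1.98). The last median became 0.33 with a filter at a mean of 1, and of all 12 inhibin and activin genes 3 were detected in more dissociated and 7 in more LCM cells. Of all 12 granulosa identity genes 4 were detected in more dissociated and 5 in more LCM cells, and of all 9 cumulus genes 3 and 4. These lists share members, and the cumulus list also shares Eno1 and Ldha with the glycolysis list. Inhbb averaged 8.48 ± 4.83 and 3.81 ± 4.15. By pool, its dissociated means were 11.90, 11.03 and 12.18 in pools 1 to 3, 7.45 in pool 4, 3.46 in pool 5, 0 in pool 6 and 5.91 in pool 7. Its LCM means were 8.46, 6.63 and 8.18 in pools 1, 2 and 7, 3.87 in pool 6, and between 0 and 0.22 in pools 3 to 5. Hsd3b1 averaged 12.64 in the 10 cells of dissociated pool 1, all non-neighboring, and 7.15 and 6.10 in LCM pools 2 and 7, and was at 0 in every cell of LCM pools 3, 4 and 6. The labels do not give the follicle of each pool, so that follicle stage and pool cannot be told apart.

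Inhba was lower than Inhbb in the LCM pools where Inhbb was high. Its dissociated means were 14.12, 9.96 and 11.96 in pools 1 to 3, 7.16 in pool 4, 3.64 in pool 5 and 5.44 in pool 7. Its LCM means were 1.85, 3.48 and 2.89 in pools 1, 2 and 7, where Inhbb stood above 6, and 1.19, 0.83, 0.50 and 1.26 in pools 3 to 6, so that the 3 LCM pools highest in Inhbb were also the 3 highest in Inhba. Every dissociated pool mean of Inhba except the 2.84 of pool 6, which had 2 cells, was above every LCM pool mean, though pool 5, at 3.64, only just exceeded LCM pool 2, at 3.48. Without dissociated pool 1 the difference of Inhba was -5.33, the smallest of the values from -8.95 to -5.33 found when any 1 pool was left out. The pool means of Fos ran from 5.95 to 10.05 in dissociated and from 0 to 3.49 in LCM cells without overlap, and those of Filip1l ran from 0 to 2.96 and from 8.58 to 10.03.

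Fos, Jun and Filip1l differed less by position than by preparation. In dissociated cells Fos averaged 7.88 in neighboring and 7.89 in non-neighboring cells, Jun 6.42 and 6.95, and Filip1l 1.30 and 1.26, while Inhba averaged 7.57 and 10.10. In LCM cells Filip1l averaged 9.22 and 9.28, Fos 1.10 and 1.69, Jun 1.21 and 0.61, and Inhba 1.71 and 1.77. Hsd3b1 differed with position, at 3.99 in 14 neighboring and 10.75 in 21 non-neighboring dissociated cells, but 10 of those 21 cells formed pool 1. In LCM cells it was at 0.84 and 4.04. LCM pools 2 and 7, where every cell held Hsd3b1, had 2 neighboring and 9 non-neighboring cells each. In both of these pools the positions overlapped, and position was not separated from pool among the LCM cells. Dissociated pools 3, 5 and 6 held both positions, and there every non-neighboring cell was above every neighboring one. The highest neighboring and the lowest non-neighboring cell were at 6.02 and 10.49 in pool 3 and at 3.33 and 6.23 in pool 5. Pool 6 held only the globin-rich cells, at 4.03 and 12.00. Other genes of follicle state were sparse. Grem1, a BMP antagonist of cumulus cells, was detected in 13 of 35 and 6 of 70 cells, Nppc, which encodes the natriuretic peptide made by mural cells, in 12 and 4, and Cyp19a1, aromatase, in 18 and 15. Of the dissociated cells with a read, 8 of 13 for Grem1, 10 of 12 for Nppc and 10 of 18 for Cyp19a1 were from pool 1. All cells of that pool were non-neighboring, so these counts also follow pool and position. Amh was detected in 5 and 21 cells. The 2 kept genes of small follicles went opposite ways, the transcription factor gene Wt1 averaging 2.46 ± 3.22 in dissociated and 5.99 ± 2.83 in LCM cells and Kctd14 7.17 ± 2.94 and 5.40 ± 3.74. Ghr, one of 3 genes listed for atresia, was detected in 6 of 35 and 53 of 70 cells.

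The genes highest in LCM cells were long. After Filip1l came Il1rapl1, an accessory protein of the interleukin-1 receptor family (6.96), Magi2, a scaffold protein (6.06), Jarid2 (6.05), the phosphodiesterase gene Pde7b (5.71), the transcription factor gene Sox5 (5.66), Atxn1 (5.54), Rad51b (5.50), the sodium–calcium exchanger gene Slc8a1 (5.46) and the potassium channel gene Kcnma1 (5.45), the values being differences of mean log2(RPM+1). Their spans from annotated start to end were between 192170 bases for Jarid2 and 1477757 for Magi2. Toward dissociated cells, Inhba, Fos, Jun and Hsd3b1 were followed by Apoa1bp (-4.90), Tpi1 (-4.85), Uqcrfs1 (-4.84), the protease inhibitor gene Cstb (-4.76), Tmsb15b2 (-4.75) and 1110008F13Rik (-4.70). Their spans did not exceed 20233 bases. Besides the markers, Il1rapl1 and Pde7b passed the filter through the LCM group alone. Hsd3b1, Apoa1bp, Cstb, Tmsb15b2 and 1110008F13Rik passed it through the dissociated group alone. Tmsb15b2 has near-identical relatives that could share its reads, and overlapping genes cannot be separated where strand was not used, which the sources do not state.

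The 4937 kept genes with an annotated span were divided by span into 5 bins of equal size. The median difference went from -1.94 in the shortest bin, with a median span of 4.60 kb, through -1.31, -0.21 and 0.74 to 1.93 in the longest bin, with a median span of 162 kb. In the shortest bin 75.5% of genes were at least 2-fold higher in dissociated cells and 2.23% in LCM cells. In the longest bin these shares were 5.06% and 72.98%. Spearman's rho across genes was 0.69 for span and 0.62 for exonic length, as a description, since genes are not independent replicates. Members of the metabolic lists were short. Of the respiratory chain genes 53 of 78 were in the shortest bin, and of the glycolysis genes 9 of 11 were in the 2 shortest bins, with median spans of 7.25 and 14.2 kb against 33.2 kb over all kept genes. Of the 93 ribosomal protein genes 84 were in the shortest bin, and their share higher in dissociated cells, 49.5%, was below the 75.5% of that bin. The part of length in their differences was not tested. Not every long gene was higher in LCM cells, Pde4d, which spans 1503514 bases, having a difference of -1.11.

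**Figure D5:**
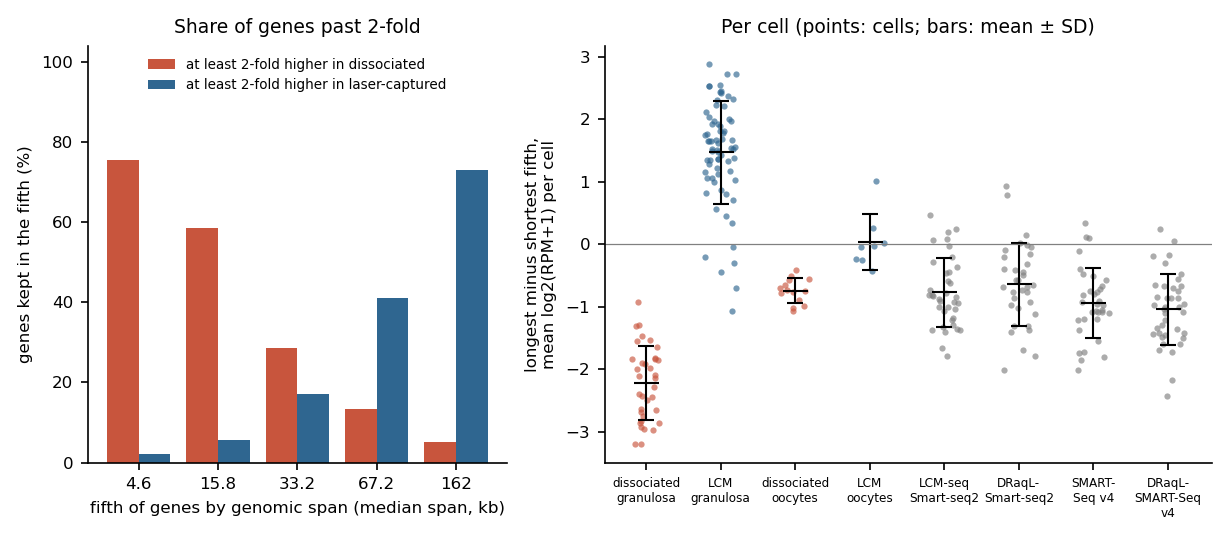
Left, percent of kept genes at least 2-fold higher in dissociated or in LCM cells by bins of genomic span that hold 20% of the genes each, labelled with the median span in kb. Right, mean log2(RPM+1) of the longest minus the shortest bin in each cell of the same-mouse groups and of the 4 sets of the other tables, with the mean ± SD. The dissociated share falls from 75.5% to 5.06% from the shortest to the longest bin, and the LCM granulosa cells lie highest.

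Within each cell, the mean of the longest bin minus that of the shortest bin was -2.22 ± 0.59 (log2 units, SD over 35 cells) in dissociated and 1.47 ± 0.82 (n = 70) in LCM cells. The groups overlapped by 1 cell each, the highest dissociated cell at -0.92 and the lowest LCM cell, the one with 28588 RPM of oocyte transcripts, at -1.06. The next LCM cell was at -0.70. The pool means ran from -2.93 to -1.89 in dissociated and from 0.55 to 2.12 in LCM cells. The oocytes of the same 2 ovaries, prepared by the same 2 procedures, differed less. The same quantity was -0.74 ± 0.20 in 14 dissociated and 0.04 ± 0.45 in 8 LCM oocytes, and Spearman's rho between span and the LCM minus dissociated difference was 0.30 over the 4253 of these genes that passed the filter in oocytes. That the difference was smaller in oocytes was not tested.

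Granulosa cells in the series' other tables were also cut by LCM, and their libraries were made by 4 methods. The labels tie their sections to no mouse. By the study's text, the amplification methods it compared used sections of a shared ovary, and whether it came from the mouse described here is not said. Their values are set beside the same-mouse cells without a test, since the tables were made separately. Their longest minus shortest quantity was -0.77 ± 0.55 with Smart-seq2 by the LCM-seq protocol (n = 37 cells), -0.64 ± 0.66 with DRaqL-Smart-seq2 (n = 34), -0.94 ± 0.56 with SMART-Seq v4 (n = 34) and -1.04 ± 0.57 with DRaqL-SMART-Seq v4 (n = 39), which lay between both same-mouse groups. The contrast of DRaqL-Smart-seq2 with the LCM-seq protocol, a change of chemistry between LCM cells, had medians of 0.12 in the shortest and 0.34 in the longest bin. For energy genes the sets differed. LCM-seq, DRaqL-Smart-seq2 and DRaqL-SMART-Seq v4 had glycolysis means of 7.20, 6.66 and 6.22 and respiratory chain means of 7.71, 7.86 and 7.84, nearer to the dissociated (7.20 and 7.69) than to the same-mouse LCM cells (4.35 and 5.22). SMART-Seq v4 had means of 4.56 and 6.16, nearer to the same-mouse LCM cells.

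For Fos and Jun they lay near the same-mouse LCM cells. Fos averaged 1.30 ± 2.26, 1.81 ± 2.60, 0.76 ± 2.29 and 0.80 ± 1.90 by LCM-seq, DRaqL-Smart-seq2, SMART-Seq v4 and DRaqL-SMART-Seq v4. Its order over all sets put the 35 dissociated cells (7.89) first and the other 5 sets of granulosa cells within 1 SD of one another. Jun averaged between 1.26 and 2.66 in the 4 sets. In oocytes of the same mouse Fos was detected in 1 of 14 dissociated and 0 of 8 LCM cells. Inhba differed among the LCM sets, from 0.17 ± 0.82 by SMART-Seq v4 to 5.15 ± 4.62 by LCM-seq.

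Filip1l was at 4.70 ± 1.62, 6.16 ± 1.38, 5.69 ± 1.47 and 6.64 ± 1.06 in the 4 LCM sets, all between the same-mouse groups. It was also high in LCM oocytes, where it averaged 8.50 ± 0.78 (n = 8), from 7.54 to 9.46, against 0.72 ± 1.23 in dissociated oocytes (n = 14), the ranges not overlapping. Il1rapl1 averaged 7.35 ± 1.157 in LCM and 2.63 ± 1.26 in dissociated oocytes, and Jarid2 9.76 ± 0.80 and 6.68 ± 0.33. The other leading genes were mixed in oocytes. Kcnma1 averaged 6.34 in LCM and 3.77 in dissociated oocytes, Sox5 3.76 and 2.05, and Atxn1 7.18 and 6.10. Magi2 averaged 6.23 and 5.48, and Slc8a1 1.01 and 0.12. Pde7b averaged 2.98 in LCM and 3.30 in dissociated oocytes, and Rad51b 1.61 and 2.44.

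Filip1l and Jarid2 were also among the most even genes over the LCM granulosa cells. The SD of Filip1l was 0.85 and smaller than that of all 79 other genes whose LCM mean lay within 0.5 of its own, which had a median SD of 1.75. The SD of Jarid2 was 0.77 and smaller than that of its 43 such neighbors, with a median of 1.31. For Il1rapl1 1 of 147 genes had a smaller SD, and for Magi2 and Pde7b nearly all had, 83 of 84 and 174 of 175.

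Oocyte transcripts were also measured in both groups of granulosa cells, and the source of these reads was not tested. The 14 oocyte genes, among them Gdf9, Bmp15, H1foo and the zona pellucida genes Zp2 and Zp3, summed to a median of 155 RPM in dissociated and 228 RPM in LCM granulosa cells, against 33879 RPM in dissociated and 26813 RPM in LCM oocytes. The study judged mixed profiles from contour plots over the whole transcriptome and reported more mixed dissociated cells, at both positions, than are counted here. The summed level used here is a different measure, and the counts cannot be compared. At 10% of the median oocyte of the same preparation or more, 3 of 35 dissociated (8.57%, Clopper–Pearson interval 1.80 to 23.1%) and 4 of 70 LCM cells (5.71%, 1.58 to 13.99%) were mixed. The 3 dissociated cells held 5016, 16124 and 19611 RPM and were neighboring, and 0 of 21 non-neighboring cells reached the limit, for which the Clopper–Pearson interval reaches 16.1% and the limit of 3 counts is 14.3%. This depended on the limit, since at 5% of the median oocyte 1 of the 5 mixed dissociated cells, with 2284 RPM, was non-neighboring. That cell is the globin-rich cell described above that goes against its label, and the neighboring cell with 16124 RPM is the other globin-rich cell. The 4 LCM cells held 14697, 17676, 18233 and 28588 RPM, and 2 were neighboring and 2 non-neighboring, the cell with 28588 RPM being the one described above that goes against its label. By pools, 2 of 20 dissociated and 1 of 22 LCM cells in pools that also held an oocyte were mixed, against 1 of 15 and 3 of 48 in the others. Without the mixed cells, the differences of the 4 marker genes kept their directions, that of Inhba being -7.92.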

How the data were processed

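The authors deposited read counts per protein-coding gene, whole numbers without normalization. Per the labels and the methods, they trimmed reads with fastp 0.20.0 and cutadapt 1.16, aligned them to GRCm38 with HISAT2 2.1.0, and counted reads within 10 kb of annotated 3′ ends with HTSeq 0.10.0, from 3′ libraries in which 1 pool of cells was tagmented together. The methods state that granulosa cells with under 100000 reads and under 3000 detectable genes were left out. Reads carried no molecular identifiers, and no doublet caller was run.

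Counts were divided by each cell's total over the 22060 protein-coding genes and expressed as RPM and log2(RPM+1), and genes with an average of the 2 group means of at least 3 were kept. Differences are LCM minus dissociated means, and 2-fold is a difference of at least 1. On this scale the fold change of low genes is understated. Tables of other LCM cells were cut to the same genes. Spans came from GENCODE vM21 (GRCm38) and 7 kept genes had none. No 2 cells held identical counts. With 1 mouse, each group is 1 sample, and SDs are over cells. Intervals are exact Poisson and Clopper–Pearson at 95%, and the floor of a share is 3 counts. Computations used python 3.11.15, numpy 2.4.6, pandas 2.3.3, scipy 1.17.1, R 4.3.3 and edgeR 4.0.16, the last only for TMM factors. The difference was checked on simulated data.

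The genes named are the 4 markers, the 10 kept genes farthest toward each group, up to 4 kept members of each of 31 lists with the largest absolute difference, and cell-type genes near 0. Some genes given by detection were picked after their values were seen. The markers, lists and comparisons were chosen with earlier results of these data known. Alternatives were other pseudocounts, scalings, filters, folds and depths, subsets of cells and the omission of each pool. The table held 2 of the 10 nuclear noncoding genes and 0 of the 8 host genes of small nucleolar RNAs, and these lists were not used.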

Additional observations from a re-analysis of the deposited data

Results flagged for a closer look

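In the 8 LCM oocytes, the only group here of 4 to 10 cells, 5 quantities were examined for a cell far from the others, and chance marks about 1 group in 20. The summed level of the 14 oocyte genes was 14665 RPM in 1 oocyte, with the next at 23102 RPM and a median of 26813 RPM. Jun was at 4.47 in 1 oocyte and at 0 in the others, and Inhba at 3.26 in 1 oocyte and at 0 in the others, on the log2(RPM+1) scale. For Jun and Inhba the 7 other oocytes were at 0, where any single detection stands apart in this way.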

How the results depend on the processing

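No paired analysis was possible because the groups hold single cells of 1 mouse whose numbers pair no dissociated with any LCM cell. The scaling to the total over all genes could not be run, since the table leaves out most noncoding genes. The difference in detectable genes per cell, 636 more in LCM cells, became -763 after thinning to 100000 reads, at which 20 dissociated and 60 LCM cells remained, and lay between 316 and 1292 when 1 pool was left out, with 316 without dissociated pool 2, 1292 without dissociated pool 1 and 325 without LCM pool 2.

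The genes higher in dissociated and in LCM cells numbered 2839 and 2232 with a filter at a mean of 1, 669 and 515 at a mean of 5, and 910 and 696 at 4-fold, each over the genes that setting tests. With neighboring cells alone they were 1052 and 1675, and the median of all kept genes went from -0.25 to 0.43, toward LCM cells. Leaving out 1 pool gave 1395 to 2162 and 1220 to 1608. Filip1l differed by 10.37 with a pseudocount of 0.1, 5.43 with 10 and 5.04 as a ratio of summed counts. With the filter at 1, which admits low genes, the median of the immediate early list was -1.79 and that of inhibin and activin 0.33. The granulosa identity list had a median of -1.03, which was -0.54 without dissociated pool 1 and -1.59 without pool 2; for cholesterol genes it was -2.14, and -1.01 without pool 1. These pools held 10 and 5 of the 35 cells. At 5% of the median oocyte 5 dissociated and 10 LCM cells were mixed. Over pools without an oocyte 1 dissociated cell was mixed, and over pools with one 1 LCM cell.

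Leaving out 1 pool in turn gave -6.88 to -5.85 for Fos, -6.01 to -5.24 for Jun, -8.95 to -5.33 for Inhba and 7.68 to 8.24 for Filip1l. Over the other settings, 313 values stayed within the spread over cells or, for counts, within 1.5 times, while 15 moved further and 2, the detectable genes and the inhibin and activin list, changed sign, all given above. Medians under 1 in size also changed sign under some settings. Those of the oxidative stress, oocyte and follicle matrix lists did so and have no settled direction. Heat shock changed sign under TMM (0.08), which shifted the median of all kept genes by 0.52, to 0.27. The heat shock median lay below that of all kept genes in both scalings, and its sign against 0 depended on the scaling. Lists with fewer than 3 kept genes under a setting, such as the immediate early list with the filter at 5, gave no median. The low depth of the dissociated cells, 15 of 35 under 100000 reads, limits statements on genes near 0.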
